A study of Sus scrofa with 12 samples.

Results

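The genes described here encode RNA-binding proteins that have been linked to the loading of RNA into extracellular vesicles (EVs). They were chosen by name as HNRNPA2B1, YBX1, SYNCRIP, ELAVL1, SSB, IGF2BP2, IGF2BP3 and MVP, and each was read from the entry of the deposited gene table that carries its symbol or the pig Ensembl identifier of that symbol. Where a symbol had several entries, the entry with the most reads was used. Of the 8 genes, 6 had an entry among the 29658 entries used, and all 6 passed the filter on low counts that left 12392 entries to test. HNRNPA2B1 and IGF2BP3 had no entry under their symbol or listed identifier and were not analysed here. The measurement is of the mRNAs of these genes, not of the proteins that bind RNA.

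Mesenchymal stromal/stem cells (MSCs) were grown from the abdominal fat of 3 female domestic pigs, 3 months of age. The cells were cultured with platelet lysate and used at passage 3. EVs were pelleted from MSC supernatants by ultracentrifugation, and by the labels MSC and EV replicates 1, 2 and 3 are the same 3 pigs. No pig received a treatment, and RNA of the MSCs and of the EVs was sequenced in 3 libraries each. MSC libraries held 11332330 to 12276855 reads on genes and EV libraries 10429085 to 12151384. The labels name a stranded total RNA kit and the methods of the study another TruSeq kit, and whether strand was used in counting is not given in the sources used here.

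Cells sort RNA into vesicles partly through proteins that recognise short motifs or modified bases and are themselves carried to the site of budding. HNRNPA2B1 and SYNCRIP, both heterogeneous nuclear ribonucleoproteins, bind short motifs in exported miRNAs. YBX1 is a cold-shock-domain protein that packages mRNA and binds small RNAs found in exosomes. ELAVL1, also called HuR, binds AU-rich elements and has been tied to miRNA export. SSB, the La protein, holds the ends of newly made RNA polymerase III transcripts. IGF2BP2 and IGF2BP3 stabilise their target mRNAs, and MVP is the main protein of the vault, a large cytoplasmic ribonucleoprotein particle.

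Libraries were checked against markers before the comparison. Of the 6 MSC markers, CD44, NT5E, ENG and PDGFRB had reads in every library, THY1 was listed at 0 reads and COL1A1 had no entry. Of the 4 adipocyte markers, FABP4 had no entry and PLIN1 was listed at 0 reads. The 3 with an entry summed to at most 0.469 CPM (counts scaled to a common library size) in any library. Among the 4 leukocyte markers, CD14 had 416 to 771 reads per library, whereas PTPRC had 2 to 10. By protein, the study reported its MSCs as positive for CD90 (THY1) and negative for CD14 and CD45 (PTPRC). The reads here are of RNA, and whether reads of THY1 were left uncounted was not tested. The leukocyte list summed to 48.0 to 50.7 CPM in MSCs and to 44.5 to 63.6 CPM in EVs. Of the 6 red cell and platelet markers, 4 had an entry, and 3 of these were at 0 reads. Their sum, 1.87 to 3.16 CPM in MSCs and 0.760 to 2.83 CPM in EVs, was thus that of GP9 alone. MSC replicate 2 had the lowest mean correlation with the other libraries, 0.884, against 0.902 to 0.929 for the other 5.

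mRNAs of all 6 genes were present in EVs as well as in MSCs, and their levels spanned a wide range. Levels of different genes were compared as deposited RPKM, which are reads scaled by gene length and by library size. In MSCs the order was YBX1 (185 ± 27.8 RPKM), MVP (42.2 ± 9.01), SYNCRIP (20.3 ± 7.43), SSB (18.5 ± 7.50), IGF2BP2 (4.04 ± 0.799) and ELAVL1 (1.08 ± 0.263; all SD, n = 3). In EVs the order was the same, with YBX1 at 116 ± 20.5 RPKM, MVP at 30.3 ± 1.47, SYNCRIP at 24.9 ± 1.87, SSB at 21.7 ± 2.97, IGF2BP2 at 3.49 ± 0.599 and ELAVL1 at 0.717 ± 0.0399 (SD, n = 3). SYNCRIP and SSB were neighbours whose ranges overlapped in both groups, while the ranges of all other neighbours were apart. YBX1 stood at or above 99.5% of the entries with an RPKM over 0 in MSCs and 99.4% in EVs, and MVP at or above 97.4% and 97.0%.

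**Figure D1:**
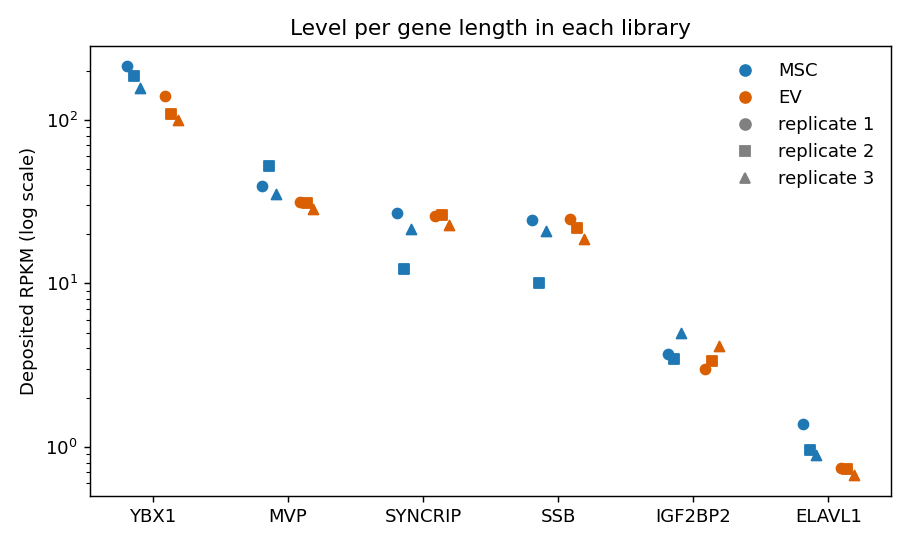
Deposited RPKM of each gene on a log axis in the 3 MSC and 3 EV libraries, with 1 point per library and the marker shape giving the replicate. YBX1 was highest in every library, SYNCRIP and SSB lay side by side, and MSC replicate 2 was the lowest library for both of these.

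For the comparison of EVs with MSCs, raw reads were scaled by TMM factors to CPM, and a log2 fold change is EV minus MSC from edgeR's quasi-likelihood test. A CPM is a share of the library and not an amount per cell or vesicle. In the bulk MSC samples, fewer cells of a type and less RNA per cell cannot be told apart. In the EV pellets, fewer vesicles of a kind and less RNA per vesicle cannot be told apart. With a fold change over 2 and a Benjamini-Hochberg adjusted p-value under 0.05, 0 of the 6 genes were called, as were 0% of all entries tested (lowest adjusted p = 0.129 by edgeR). DESeq2 called 0 of the 6 by the same thresholds, against 3.28% of the 12347 entries to which it gave an adjusted p-value. By the thresholds of the study, a fold change over 2 with an unadjusted p-value under 0.05, 0 of the 6 passed, against 3.57% of all entries lower and 5.55% higher in EVs. At an unadjusted p-value under 0.05 with any fold change, 1 of the 6, YBX1, was lower and 0 were higher, against 7.93% and 8.03% of all entries. The median log2 fold change of the 6 was -0.36, and that of all entries was -0.02.

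Groups did not overlap for 3 genes, YBX1, MVP and ELAVL1, in each of which every EV library lay below every MSC library. This held for 13.6% of all entries tested, and the opposite order for 14.3% of them and for 0 of the 6 genes. SYNCRIP, SSB and IGF2BP2 had overlapping groups.

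YBX1 (ENSSSCG00000028485, chromosome 6 from 156189763 to 156217345 on the minus strand, susScr3 build) was covered by 13267, 11388 and 9623 reads in the MSCs of pigs 1, 2 and 3 and by 8054, 6744 and 5891 in their EVs. The lowest MSC library was above the highest EV library, and the EV library was the lower one in each of the 3 pigs. After TMM normalization it had 978 ± 143 CPM in MSCs and 601 ± 76.7 CPM in EVs (SD, n = 3). The EV level was thus 0.615 times that of MSCs, with a log2 fold change of -0.70 ± 0.27 (SE, 95% interval -1.32 to -0.08, unadjusted p = 0.0313 and adjusted p = 0.278 by edgeR). Within pigs, the log2 difference was -0.60, -1.05 and -0.45 for replicates 1, 2 and 3. With each pig as a block its unadjusted p-value was 0.0658 (adjusted p = 0.283), and without EV replicate 2 it was 0.121, both by edgeR. It was also over 0.05 without MSC replicate 1 (0.0754), EV replicate 1 (0.0522) or EV replicate 3 (0.0635). The exact permutation test on log2 CPM gave p = 0.1 (two-sided), the smallest that 3 libraries against 3 allow. Here and for the ratios below, this test permuted the libraries without regard to pig.

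Of the 4 endothelial markers, only PECAM1 had reads in every library, and it was also lower in EVs, at 215, 111 and 114 reads against 78, 20 and 31 in EVs (log2 fold change -1.71, standard error 0.54, adjusted p = 0.249 by edgeR). The endothelial list summed to 9.67 to 16.7 CPM in MSCs and 1.64 to 6.59 CPM in EVs. VWF was at 0 reads, KDR had at most 1 read in a library, and CDH5 had no entry. The study reported its MSCs as negative for CD31, the protein that PECAM1 encodes. Whether endothelial cells were present was not tested, nor was any part of theirs in the values of YBX1, MVP and ELAVL1.

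MVP (ENSSSCG00000027946, chromosome 3 from 18509112 to 18533958, minus strand) was covered by 4870, 6408 and 4295 reads in the MSCs of pigs 1, 2 and 3 and by 3607, 3875 and 3362 in their EVs. The EV libraries lay close together, at 316 ± 21.1 CPM, and the MSC libraries further apart, at 452 ± 140 CPM (SD, n = 3), with MSC replicate 2 the highest. The log2 fold change was -0.52 ± 0.29 (SE, 95% interval -1.18 to 0.15, adjusted p = 0.383 by edgeR), and it was -0.23 without MSC replicate 2. EVs were lower in all 3 pigs, by log2 differences of -0.31, -1.02 and -0.10. TEP1, a further protein of the vault, was covered by 2742, 2591 and 1492 reads in the 3 MSC libraries and by 1811, 1996 and 1249 in the 3 EV libraries, which gave a log2 fold change of -0.43 ± 0.30 (SE, adjusted p = 0.462 by edgeR) with overlapping groups.

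ELAVL1 was read from few counts. Its entry (ENSSSCG00000013592, chromosome 2 from 71607470 to 71646401, plus strand) was covered by 146, 100 and 93 reads in the MSCs of pigs 1, 2 and 3 and by 73, 78 and 67 in their EVs. A second entry under the symbol ELAVL1, from 71607515 to 71646224 on the same strand, lay wholly inside the first, had a gene model 222 bases shorter, and was listed at 0 reads in all 6 libraries. Whether reads on the shared part were left uncounted was not tested, and the level of ELAVL1 per gene length is uncertain. On the reads that were counted, ELAVL1 had 9.59 ± 1.71 CPM in MSCs and 6.34 ± 0.377 CPM in EVs (SD, n = 3), so its EV-to-MSC log2 fold change was -0.60 ± 0.30 (SE, 95% interval -1.29 to 0.10, adjusted p = 0.350 by edgeR). The value was lower in EVs in all 3 pigs. On the log2(RPKM + 1) scale, which understates the change of low genes, limma gave -0.27 (adjusted p = 0.486).

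SYNCRIP (ENSSSCG00000004294, chromosome 1 from 61000033 to 61027408, minus strand) was covered by 2416, 1081 and 1887 reads in the MSCs of pigs 1, 2 and 3 and by 2141, 2342 and 1921 in their EVs. MSC replicate 2 stood alone at the low end, and the other 5 libraries lay between 160 and 194 CPM. Means were 150 ± 42.7 CPM in MSCs and 186 ± 7.29 CPM in EVs (SD, n = 3). Its log2 fold change came to 0.31 ± 0.27 (SE, adjusted p = 0.558 by edgeR), and 0.10 without MSC replicate 2. The 95% interval, from -0.32 to 0.94, spanned EV levels from 0.800 to 1.92 times those of MSCs.

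SSB (ENSSSCG00000015938, chromosome 15 from 85205443 to 85215536, plus strand) was covered by 2343, 947 and 1978 reads in the MSCs of pigs 1, 2 and 3 and by 2197, 2085 and 1695 in their EVs. Again MSC replicate 2 was low, at 90.6 CPM, while the other 5 libraries had 163 to 185 CPM. The log2 fold change was 0.24 ± 0.30 (SE, 95% interval -0.46 to 0.94, adjusted p = 0.681 by edgeR) and turned to -0.010 without MSC replicate 2. Within pigs, the log2 difference was 0.03 for replicates 1 and 3 and 0.85 for replicate 2. The entry shares 799 bases with METTL5 on the opposite strand, which had 123 to 194 reads per library, and reads on the shared part cannot be told apart if strand was not used. It also lies inside an entry for OCA2 that spans 92951114 bases and had 1 read in all libraries together.

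IGF2BP2 (ENSSSCG00000011795, chromosome 13 from 133022540 to 133065865, minus strand) was covered by 645, 595 and 849 reads in the MSCs of pigs 1, 2 and 3 and by 482, 582 and 682 in their EVs. Replicate 3 was the highest library in both groups, and the EV library was the lower one in each pig. Means were 59.6 ± 11.3 CPM in MSCs and 51.7 ± 15.2 CPM in EVs (SD, n = 3), which gave a log2 fold change of -0.21 ± 0.28 (SE, 95% interval -0.86 to 0.45, adjusted p = 0.710 by edgeR). It was -0.47 when EV replicate 3 was left out and -0.05 when MSC replicate 3 was. Its paralog IGF2BP1 had 0 reads in all 6 libraries, which allows up to 3 reads in a library, or 0.232 to 0.303 CPM, counting error only.

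**Figure D2:**
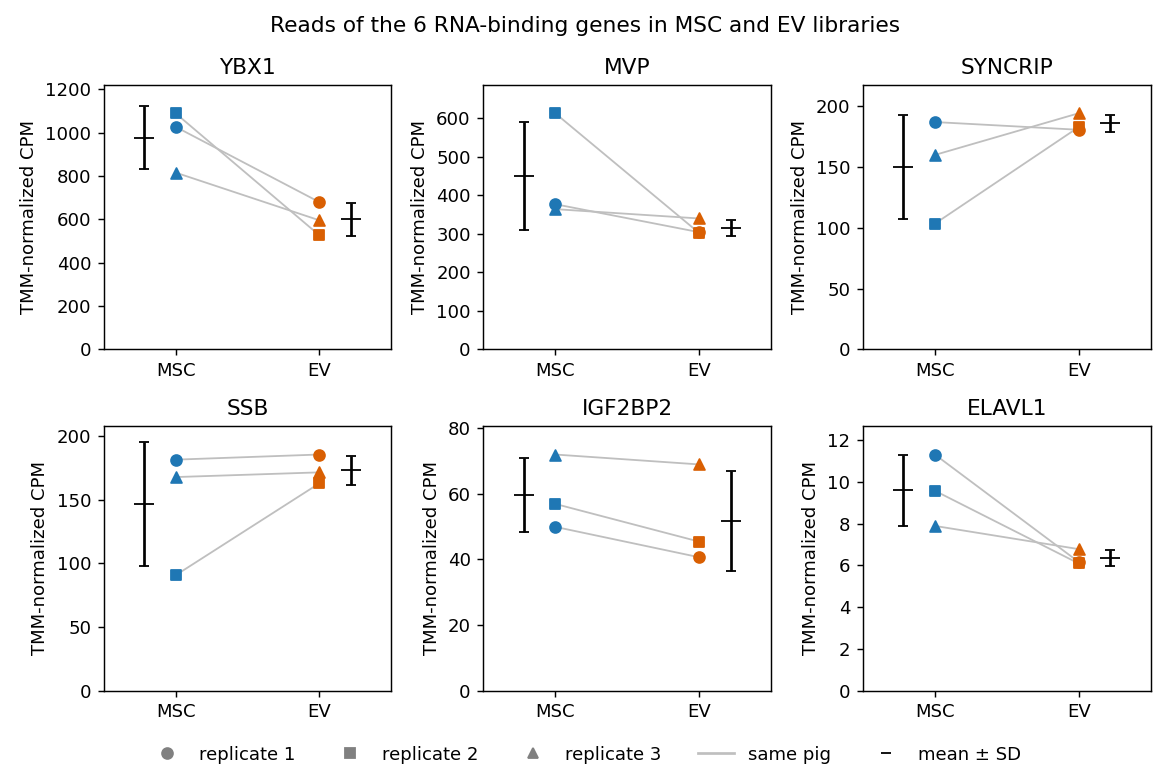
TMM-normalized CPM of each gene in MSC and EV libraries, with 1 point per library, a grey line joining the libraries of the same pig, and the mean ± SD (n = 3) beside each group. YBX1, MVP and ELAVL1 had every EV library below every MSC library, and the low MSC point of SYNCRIP and SSB was replicate 2.

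**Figure D3:**
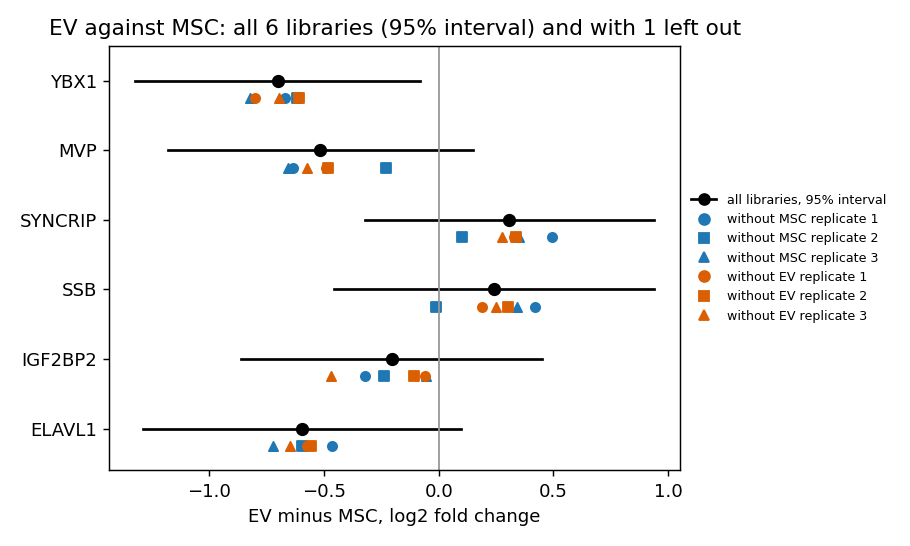
Log2 fold change, EV minus MSC, with the 95% interval from edgeR in black and, below it, the value when 1 library was left out. The interval of YBX1 ended at -0.08, those of the other 5 genes crossed 0, and leaving out MSC replicate 2 moved MVP, SYNCRIP and SSB toward 0.

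Over the 6 libraries, the genes fell into like and unlike patterns. Likeness was the root mean square difference between log2 CPM values, each centred on the gene's own mean, so that 0 is an identical pattern. SYNCRIP and SSB were the most alike pair, at 0.11, followed by YBX1 and ELAVL1 at 0.16 and YBX1 and MVP at 0.24. The least alike were SSB and MVP, at 0.68. IGF2BP2 was 0.38 or more from each of the others.

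**Figure D4:**
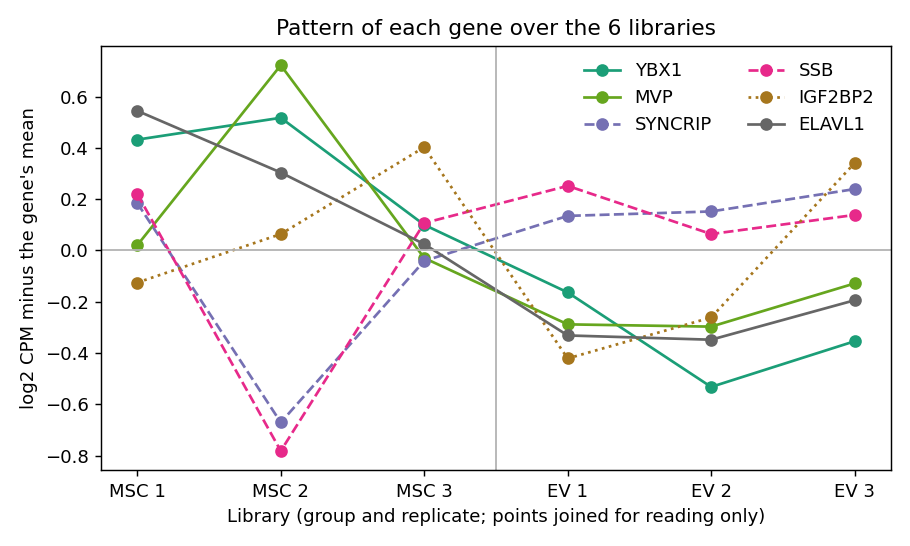
Log2 CPM of each gene minus its mean over the 6 libraries. SYNCRIP and SSB dropped together in MSC replicate 2, the library in which MVP was highest, while YBX1, MVP and ELAVL1 were below their means in all 3 EV libraries.

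Ratios within a library do not depend on the scaling factor. They were formed after the values had been seen. YBX1 had the lowest log2 fold change of the genes described here, and SYNCRIP and SSB had the highest. That choice favoured separation of the groups in the ratios to SYNCRIP and SSB, so their p-values are descriptive only. MSC replicates 1, 2 and 3 had 5.49, 10.5 and 5.10 YBX1 reads per SYNCRIP read, and the EV replicates 3.76, 2.88 and 3.07. The groups did not overlap, and the same was so for YBX1 reads per SSB read, at 5.66, 12.0 and 4.87 in MSCs and 3.67, 3.23 and 3.48 in EVs (two-sided exact permutation test, p = 0.1 for each ratio, the smallest that 3 against 3 allow). For YBX1 reads per MVP read the groups overlapped, at 2.72, 1.78 and 2.24 in MSCs and 2.23, 1.74 and 1.75 in EVs (exact permutation p = 0.2). They overlapped also for YBX1 reads per IGF2BP2 read, with an exact permutation p of 0.3.

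Among all other tested entries with a symbol, the closest patterns to YBX1 were those of ERGIC1, a protein that cycles between the endoplasmic reticulum and the Golgi (0.06), and VPS51, a subunit of a tethering complex for endosome-derived vesicles (0.07). ERGIC1 was covered by 3113, 2473 and 2192 reads in the 3 MSC libraries and by 1667, 1566 and 1278 in the 3 EV libraries. Closest to MVP were TSKU, a secreted proteoglycan (0.06), and SPG7, a mitochondrial protease (0.07). ESYT1, a membrane-tethering protein, was closest to ELAVL1 (0.04), with UBAP2 next (0.06). For SYNCRIP they were TLK2, a nuclear kinase (0.06), and KIFAP3, a kinesin-associated protein (0.07). For SSB it was GTF2H3, a subunit of transcription factor TFIIH (0.05), with MSC replicate 2 as its lowest library, at 489 reads. IGF2BP2 had NUDT7 (0.08) and UBAC2 (0.10) as its nearest entries. These values describe 6 libraries from 3 pigs, and the nearest of all tested entries are close by choice.

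Other RNA-binding genes were read from lists chosen by family. In all 4 lists, 66 genes were named, 52 had an entry and 38 could be tested. At an unadjusted p-value under 0.05, 1 was lower and 0 were higher, against 7.93% and 8.03% of all entries tested. Of the 38, 18 had a log2 fold change above 0 and 20 below, against 49.1% of all entries above 0. The adjusted threshold was passed by 0 of them, as by 0% of all entries. For 4 of the 38 every EV library was above, and for another 4 below, every MSC library, against 14.3% and 13.6% of all entries. Of the 9 listed genes at 0 reads in all libraries, 6 lie under another entry that covers at least 0.9 of their span.

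Of the 19 other hnRNP genes, 10 were tested, with a median log2 fold change of -0.03 and 0 past an unadjusted p-value of 0.05. HNRNPA3, a close paralog of HNRNPA2B1, had no entry. HNRNPA1, a splicing regulator and the other close paralog, was covered by 1321, 740 and 1381 reads in the 3 MSC libraries and by 1076, 699 and 748 in the 3 EV libraries. Its log2 fold change was -0.39 ± 0.29 (SE, adjusted p = 0.490 by edgeR), the lowest of the 10. HNRNPUL1 was next, at -0.18 ± 0.22 (SE), on an entry whose span another entry covers. The highest were HNRNPH1, which binds G-rich RNA, at 0.47 ± 0.45 (SE), and HNRNPH3 at 0.46 ± 0.36 (SE). HNRNPH1 had 1193 reads in MSC replicate 2 and 3344 to 5787 in the other libraries. HNRNPR, the nearest paralog of SYNCRIP, had a log2 fold change of -0.12 ± 0.28 (SE), with 619 reads in MSC replicate 2 and 1192 and 1244 in MSC replicates 1 and 3.

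Among the 17 paralogs and partners, 6 were tested, with a median log2 fold change of 0.37 (0.21 without EV replicate 2) and 0 past an unadjusted p-value of 0.05. YBX3, the cold-shock-domain paralog of YBX1, was covered by 3651, 4066 and 3408 reads in the 3 MSC libraries and by 2958, 2709 and 2236 in the 3 EV libraries. All its EV libraries were below all its MSC libraries, as for YBX1, with a log2 fold change of -0.48 ± 0.24 (SE, adjusted p = 0.352 by edgeR). LARP4, a La-related protein that binds poly(A) tails, had the highest value, 0.87 ± 0.55 (SE), and MSC replicate 2 held 115 of its reads against 502 to 1119 in the other libraries. ELAVL2 had 1 read and ELAVL3 had 0 reads in all libraries together.

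Of 23 further RNA-binding genes, 17 were tested, with a median log2 fold change of -0.09. NSUN2 was the 1 gene past an unadjusted p-value of 0.05. It encodes the methyltransferase that places methylcytosine, a mark that YBX1 can bind, in RNA. NSUN2 was covered by 3233, 2202 and 2540 reads in the 3 MSC libraries and by 1965, 1861 and 1581 in the 3 EV libraries, so every EV library was below every MSC library in reads and in CPM. The log2 fold change was -0.52 ± 0.21 (SE, unadjusted p = 0.0427 and adjusted p = 0.300 by edgeR), while blocking on pig gave an unadjusted p of 0.0980. PCBP2, a poly(C)-binding protein, had the lowest value of the list, -0.66 ± 0.40 (SE, adjusted p = 0.410 by edgeR). The highest were TIA1, a stress granule protein, at 0.86 ± 0.42 (SE, adjusted p = 0.343 by edgeR), and STAU2, which binds double-stranded RNA, at 0.62 ± 0.48 (SE). TIA1 was covered by 902, 262 and 1001 reads in the 3 MSC libraries and by 1316, 1396 and 1044 in the 3 EV libraries, with every EV library above every MSC library, and blocking on pig gave an unadjusted p of 0.0225.

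**Figure D5:**
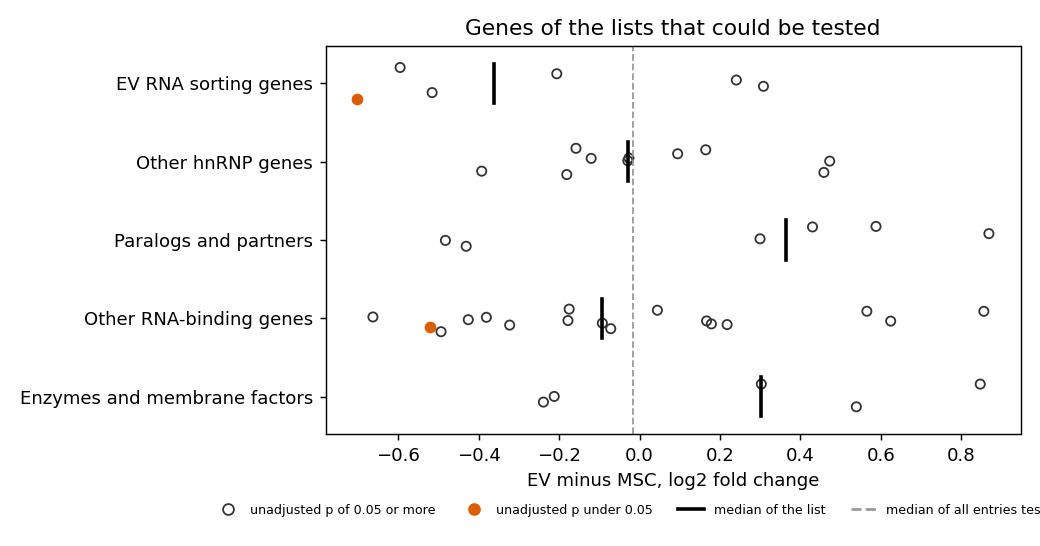
Log2 fold change, EV minus MSC, of the 6 RNA sorting genes and of the 38 tested genes of the 4 lists, with 1 point per gene, a black bar at each median and filled points at an unadjusted p-value under 0.05. YBX1 and NSUN2 are the 2 filled points, both below 0, and the dashed line marks the median of all entries tested, -0.02.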

How the data were processed

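The authors aligned mRNA reads with TopHat and deposited raw counts per gene, made with featureCounts, and RPKM. The submitters' processing notes also name HTSeq, and the susScr3 build. Reads counted on genes were 25.4% to 28.2% of the totals that the deposited RPKM imply. Of 29661 entries, 3 were shifted by a column and left out, and 16140 of the rest carried a symbol from the table or from an identifier list.

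EVs were compared with MSCs over all entries by edgeR 4.0.16 (TMM, filterByExpr, quasi-likelihood test, Benjamini-Hochberg adjustment) in R 4.3.3. Alternatives used DESeq2 1.42.0, limma 3.58.1, other scaling, no filter, summed entries, the pig as a block, and each library left out. The edgeR fit was tested on simulated data. Libraries of the same pig, known from the labels, had deviations correlated at 0.251, 0.384 and 0.408, and of different pigs at -0.364 to -0.038. The genes and lists were chosen with earlier results of these data known. All genes chosen by name are given, and from each list the 2 highest and 2 lowest and the direct paralogs, and for each gene the 2 nearest patterns, except that some genes this rule names are not reported here. Small-RNA files were not used here.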

Additional observations from a re-analysis of the deposited data

How the results depend on the processing

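Each of the 6 genes was refitted under 16 alternatives, of which cyclic loess and the removal of the length trend were chosen after seeing the data. YBX1 was lower in EVs under all 16, but its unadjusted p-value was not under 0.05 in 7. Of these, library totals gave a log2 fold change of -0.66, the pig as a replicate block -0.70 and cyclic loess -0.48, and the other 4 each left out 1 library. Over all 6 fits with 1 library left out, YBX1 ran from -0.82 to -0.61. ELAVL1 came under 0.05 with cyclic loess (-0.71) and was -0.27 with limma on log2(RPKM + 1). MVP was -0.30 and SSB 0.40 with cyclic loess, and IGF2BP2 was -0.38 with the length trend removed. SSB turned to -0.010 when MSC replicate 2 was left out and reached 0.42 when MSC replicate 1 was. No adjusted p-value of the 6 genes was under 0.05 in any alternative, the lowest being 0.138 with DESeq2. The replicate block changed the unadjusted call of YBX1, NSUN2 and TIA1 and of no other gene named here. The cause of these shifts was not tested.

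Over all entries, the count past a 2-fold change and an adjusted p-value of 0.05 was 0 in edgeR, 3 with library totals, 405 with DESeq2, 5 without the filter, 136 with the replicate block, and 8 and 5 with limma on log2 RPKM after adding 1 and 0.1. By the thresholds of the study on edgeR p-values, 688 entries were higher and 442 lower, against 243 and 194 with limma after adding 1. Leaving out 1 library gave 270 to 607 lower. The study took its p-values from a Student t-test, so these counts are not like its own. Of the 66 listed genes, 1 passed an unadjusted p of 0.05, against 0 with library totals, 2 with the replicate block, and 0 to 3 with 1 library left out. With 1 library left out, the median of the other hnRNP genes ranged from -0.12 (without MSC replicate 2) to 0.0078, of the paralogs and partners from 0.21 to 0.54, of the further RNA-binding genes from -0.16 to -0.036, and of the enzymes and membrane factors from 0.078 to 0.49. The ratio of IGF2BP3 to IGF2BP2 and the count of miRNAs with sorting motifs were planned and not run, since IGF2BP3 had no entry and no mature sequences were at hand. With 3 libraries a group, the 95% intervals reached folds of 0.400 for YBX1 and 1.92 for SYNCRIP.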

Other observations

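Enzymes and membrane factors linked to RNA loading were also read. Of 7 genes, 5 were tested, with a median log2 fold change of 0.30 and 0 past an unadjusted p-value of 0.05. The median was 0.078 without EV replicate 2 and 0.49 without EV replicate 3. SUMO2 had a log2 fold change of -0.24 ± 0.35 (SE). SMPD3, the neutral sphingomyelinase whose ceramide product is used in vesicle budding, was covered by 42, 54 and 43 reads in the 3 MSC libraries and by 43, 54 and 25 in the 3 EV libraries, a log2 fold change of -0.21 ± 0.39 (SE). CAV1 had 1 read in each group and MAP1LC3B was listed at 0 reads. Other entries cover the spans of SUMO2, SMPD3, CAV1 and MAP1LC3B.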
